A study of Mus musculus with 6 samples.

Results

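The vacuolar proton pump (V-ATPase) and the ion channels that share its membranes were represented by 31 genes, chosen by name from the 24421 genes of the count table. The 31 genes were 9 subunits of the pump's membrane sector V0, 9 subunits of its catalytic sector V1, 2 accessory subunits, 2 rabconnectin assembly factors, 5 genes of the CLC chloride/proton exchangers and their beta subunit, and 4 cation channels of endosomes and lysosomes. RNA sequencing of poly(A) RNA compared 3 *Nhe6*-knockout with 3 wildtype cultures of primary endothelial cells from the mouse cochlea. The study's methods describe isolating the cells from the stria vascularis (SV) with the spiral ligament, whereas its sequencing results name only the SV. The knockout mice carried a targeted gene disruption, and wildtype mice served as controls. The labels give the background strain of both groups as C57BL/6N, whereas the study's methods give C57bl6/j with backcrossing. All cochleae came from pups of postnatal day 10 to 12, cells of at least 6 mice were pooled per culture, and no culture received a treatment.

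The V-ATPase is a rotary motor. Its V1 sector in the cytosol hydrolyzes ATP, and its V0 sector in the membrane carries protons into the lumen, which acidifies endosomes and lysosomes. Pumping builds up a voltage that stops further pumping unless other ions move, and CLC exchangers and lysosomal cation channels provide such paths. In the inner ear, V-ATPase of the plasma membrane is best known from specialized epithelial cells, whereas the genes described here are mostly those of the housekeeping pump found in all cells.

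Between 25587097 and 29126232 reads fell on genes in each library, and 13479 genes passed the filter on low counts. Of 15 endothelial markers, 7 averaged at least 100 normalized reads, among them Emcn, Eng and Cdh5, whereas Pecam1 had no more than 8 reads and Cldn5 and Robo4 had 0 in every library. Atp6v0c, a gene of the set, was listed with 0 reads as well. The study reported Cldn5 by quantitative PCR, with less in the knockout. Its methods give SV and spiral ligament as the source of that RNA, whereas its figure caption names cells. The cause of such 0 counts was not tested. Cdh5, the cadherin of endothelial junctions, fell in the knockout (3725 ± 1363 normalized reads in wildtype and 210.3 ± 27.9 in knockout cultures, log2 fold change -4.15 ± 0.31, adjusted p = 0.0133 in edgeR's quasi-likelihood test). Of the 9 endothelial markers that could be tested, 6 had a log2 fold change below 0 and 3 above. Among these 9, Cdh5, Flt1 and Thbd were lower without overlap between the genotypes, as were 9.57% of all genes tested. Summed over the 15 markers, the genotypes overlapped, with 25095 to 36939 normalized reads in wildtype and 17005 to 26691 in knockout cultures. These sums rest largely on Emcn (18385, 17400 and 9896 in the knockout cultures), except in wildtype culture 2, where Thbd was the largest part. All 12 fibroblast markers averaged at least 100 normalized reads, although the study's methods state that the cultured cells were purified by fluorescence-activated cell sorting. Fewer cells of a type and less RNA per cell cannot be told apart in such bulk libraries. Features of single libraries also bear on the values below. The summed macrophage markers of wildtype culture 2 were 99.0 normalized reads, while wildtype cultures 1 and 3 held 3810 and 1974 and the knockout cultures 1551 to 4125. That culture stood apart in markers of other cells too, in both directions within a list. Of fibroblast markers it had 27174 normalized reads of Col1a1 (207 and 213 in wildtype cultures 1 and 3) but 10083 of Pdgfra (19046 and 18828). Of mural markers it had 16267 of Acta2 (29.3 and 70.6) but 7790 of Pdgfrb (14678 and 16708). Of endothelial markers it had 409 of Emcn (13407 and 14723) but 21096 of Thbd (6379 and 1654). *Nhe6*-knockout cultures 1 and 2 differed from each other far less than any other pair of the same genotype, with a chi-square per degree of freedom of 4.91 against 90.1 to 398, which is still above sampling noise, so both were kept. The 16 cell cycle markers summed to 8541 to 15526 normalized reads in the knockout and 2616 to 3981 in the wildtype cultures, and their part in the values below was not tested.

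No gene of the set passed the threshold of an adjusted p of 0.05 in edgeR's quasi-likelihood test, in which 9 of the 13479 genes tested passed (0.0668%), 5 lower (0.0371%) and 4 higher (0.0297%). Of the 31 genes, 30 could be tested, 27 of them had a log2 fold change below 0 in the knockout and 3 above 0. Their median log2 fold change was -0.21, beside -0.02 over all genes tested, of which 51.9% were below 0. An unadjusted p under 0.05 was found for 6 of the 30 genes, 5 lower (Atp6v0e2, Atp6ap1, Atp6ap2, Clcn3 and Ostm1) and 1 higher (Clcn5), against 11.8% of all genes in either direction, 5.71% lower and 6.14% higher. The normalized counts of the genotypes did not overlap for 9 of the 30 genes, 8 lower and 1 higher, against 19.9% of all genes, 9.57% lower and 10.3% higher. DESeq2 on the same counts passed 3 of the 30 genes, all lower, Atp6v0e2 (adjusted p = 8.43e-05), Atp6ap1 (0.0149) and Atp6ap2 (0.0456), where it passed 4.65% of all genes and 1.82% as lower. The 95% confidence interval of the log2 fold change lay between -1 and 1 for 23 of the 30 genes, so that a change of more than 2-fold was outside the interval for them.

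**Figure D1:**
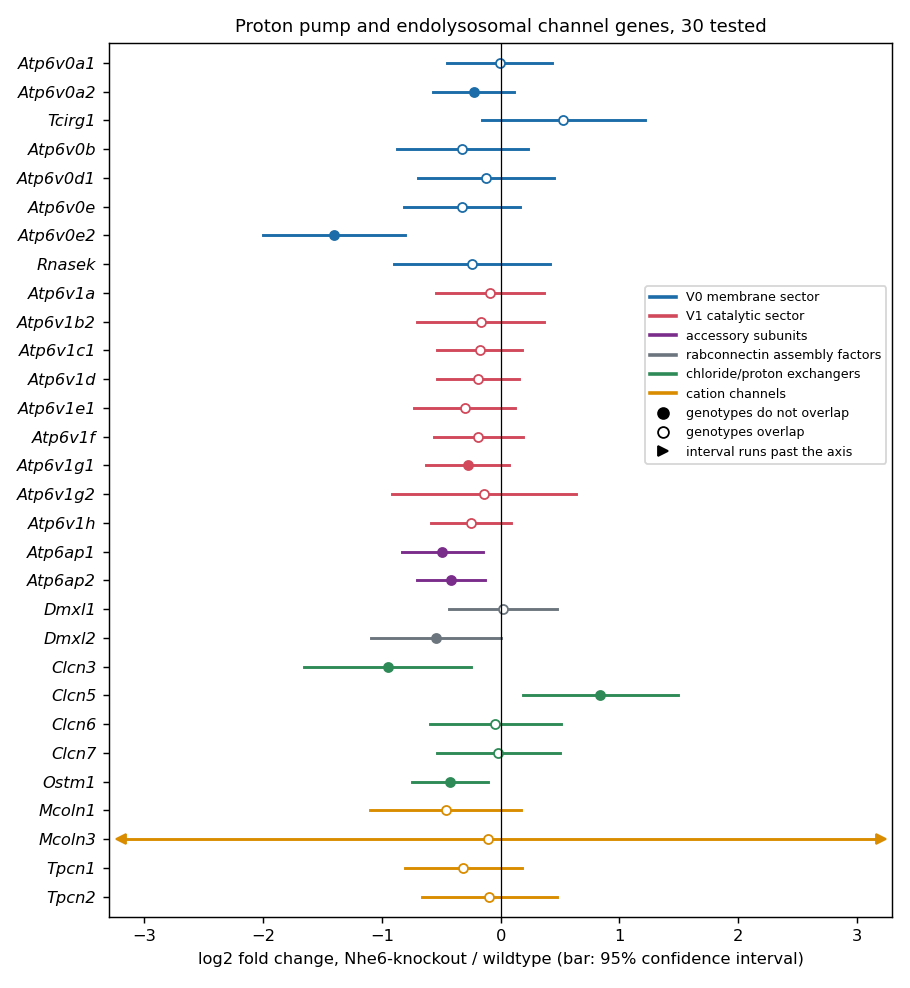
Log2 fold change of each of the 30 tested genes, *Nhe6*-knockout over wildtype, with its 95% confidence interval, colored by role (filled points, counts of the genotypes do not overlap; n = 3 cultures each). Atp6v0e2 lies farthest to the left at -1.41, Clcn5 farthest to the right at 0.84, and 27 of the 30 points lie left of 0.

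Genes of acidification often carry the E-box type site TCACGTGA or its core CACGTG near their start, letters known as part of the motif bound by the lysosomal regulator TFEB and its relatives. RefSeq promoter windows (GRCm38.p6, 250 bases before to 50 after the start) were at hand for 23 of the 31 genes. TCACGTGA was found in 6 of these 23 genes (26.1%), beside 1.12% of 27025 genes with a window, and CACGTG in 7 of 23 (30.4%), beside 8.09%. The longer CLEAR element, TCACGTGA with G before and C after it, was found in 0 of 23 genes, beside 0.370%. All 3 motifs read the same on both strands, and each longer one contains the shorter. The 6 genes shown were picked for holding the site, and they include subunits of the pump, CLC exchangers and a cation channel. In the following lines, written 5′ to 3′ along the gene, capitals mark TCACGTGA and any part of a neighboring CACGTG.
Atp6v0d1, chr8:105566040-105566089, minus strand: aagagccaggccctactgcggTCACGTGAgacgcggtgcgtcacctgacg
Atp6v0e, chr17:26676377-26676426, plus strand: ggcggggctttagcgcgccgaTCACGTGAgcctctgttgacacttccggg
Atp6v1a, chr16:44139363-44139412, minus strand: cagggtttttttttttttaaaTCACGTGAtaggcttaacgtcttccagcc
Clcn6, chr4:148038811-148038860, minus strand: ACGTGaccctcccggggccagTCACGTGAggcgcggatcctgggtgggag
Clcn7, chr17:25133376-25133425, plus strand: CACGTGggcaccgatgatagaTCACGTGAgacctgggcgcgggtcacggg
Mcoln1, chr8:3500452-3500501, plus strand: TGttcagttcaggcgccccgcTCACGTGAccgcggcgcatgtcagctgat
The 7 tested genes with either motif, Atp6v0b included, had log2 fold changes from -0.46 to -0.02 with a median of -0.12, and the 15 tested genes with a window and no match had a median of -0.19. The genes with the site were thus not those farthest from 0. The windows of the set held 58.4% G and C on average, beside 53.8% over all windows, and the shares above were not adjusted for this.

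In the V0 sector, 7 of the 8 tested subunits were below 0, with a median log2 fold change of -0.23. The gene with the lowest p of the whole set was Atp6v0e2 (chr6:48537615-48541801, plus strand), 1 of 2 genes for the small membrane subunit e. It had 754, 724 and 458 normalized reads in wildtype cultures 1, 2 and 3, and 223, 289 and 219 in the knockout cultures. The lowest wildtype culture thus stood above every knockout culture. The mean was 645 ± 163 (SD, n = 3) in wildtype and 243 ± 39.4 in knockout cultures, a log2 fold change of -1.41 ± 0.25 (SE) with a 95% confidence interval of -2.0 to -0.81. The adjusted p was 0.102 in edgeR's quasi-likelihood test and 8.43e-05 in DESeq2, so the call depended on the tool. Across all alternatives tried the log2 fold change stayed between -1.61 and -1.28.

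The paralog Atp6v0e (chr17:26663231-26699647, plus strand), the more abundant gene for subunit e, had 3122, 4045 and 2351 normalized reads in wildtype and 2532, 2564 and 2500 in knockout cultures. The genotypes overlapped, and the log2 fold change was -0.33 ± 0.20 (adjusted p = 0.599). Per length, Atp6v0e2 made up 27.3, 21.8 and 23.3% of the subunit e transcripts in the wildtype cultures and 12.1, 14.9 and 12.0% in the knockout cultures. The share was lower in all knockout cultures, at 13.0 ± 1.68% (SD) against 24.1 ± 2.86%. With 3 against 3 cultures, the exact two-sided permutation test cannot go below p = 0.1, which is the value found here, and its adjusted value over the 19 shares tested was 0.48. The RefSeq windows of both genes are printed, with TCACGTGA in capitals. These genes are the only pair of paralogs in the set whose shares differed by over 10 percentage points between the genotypes without overlap. The window of Atp6v0e belongs to a RefSeq start inside the gene span given above, not to the first base of that span.
Atp6v0e, chr17:26676146-26676445, plus strand: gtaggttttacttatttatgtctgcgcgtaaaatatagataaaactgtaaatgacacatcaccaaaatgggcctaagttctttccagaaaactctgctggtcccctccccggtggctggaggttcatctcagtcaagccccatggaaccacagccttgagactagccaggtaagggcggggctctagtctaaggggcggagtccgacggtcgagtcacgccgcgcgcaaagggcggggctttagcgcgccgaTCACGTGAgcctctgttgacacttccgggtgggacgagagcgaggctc
Atp6v0e2, chr6:48537319-48537618, plus strand: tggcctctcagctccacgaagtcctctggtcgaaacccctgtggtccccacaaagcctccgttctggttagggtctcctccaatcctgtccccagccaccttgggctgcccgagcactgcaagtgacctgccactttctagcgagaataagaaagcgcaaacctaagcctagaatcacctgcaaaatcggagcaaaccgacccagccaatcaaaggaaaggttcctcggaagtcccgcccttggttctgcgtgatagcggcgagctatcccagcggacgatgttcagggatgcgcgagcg
The window of Atp6v0e holds the site a short way before its end, whereas the letters CACGTG are not in the window of Atp6v0e2.

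Subunit a, the large membrane subunit that helps to carry the protons and sends the pump to its compartment, has 4 genes. Atp6v0a1 (chr11:101009452-101063719, plus strand) had 3111, 4652 and 3163 normalized reads in wildtype and 3658, 3720 and 3487 in knockout cultures. The knockout values lay inside the wildtype range, with a log2 fold change of -0.01 ± 0.18 and a 95% confidence interval of -0.45 to 0.43. Atp6v0a2 (chr5:124628576-124724455, plus strand), the isoform known from the Golgi and early endosomes, had 2710, 3385 and 2507 normalized reads in wildtype and 2495, 2425 and 2432 in knockout cultures. All knockout cultures were below all wildtype cultures, but by little in culture 3 of the wildtype, and the log2 fold change was -0.23 ± 0.14 (adjusted p = 0.599). Without strand information in the notes on counting, reads of the antisense gene 4930404A12Rik, which overlaps 9.86% of the exon length of Atp6v0a2, cannot be told apart.

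Tcirg1 (chr19:3896050-3907133, minus strand), which encodes subunit a3, the isoform of lysosomes and of osteoclasts, lay on the other side of 0. It had 1118, 658 and 596 normalized reads in wildtype and 1150, 1362 and 912 in knockout cultures. Wildtype culture 1 lay within the knockout range, and the log2 fold change was 0.53 ± 0.28 with a 95% confidence interval of -0.16 to 1.21 (adjusted p = 0.532). Macrophages are rich in Tcirg1, and the 3 cultures highest in summed macrophage markers, wildtype culture 1 (3810) and knockout cultures 1 (3749) and 2 (4125), were also the 3 highest in Tcirg1. Among the remaining cultures the order did not hold. Wildtype culture 2, lowest in these markers (99.0), had 658 normalized reads of Tcirg1, above the 596 of wildtype culture 3 (1974). Knockout culture 3 (1551) had 912. The part of macrophages in the Tcirg1 values was not tested. Per length, the subunit a transcripts divided in the wildtype cultures into 47.7 ± 5.01% Atp6v0a1, 36.9 ± 0.887% Atp6v0a2, 15.1 ± 5.84% Tcirg1 and 0.312 ± 0.179% Atp6v0a4, the isoform of kidney and inner ear epithelium. The share of Atp6v0a2 was 31.3 ± 1.81% in the knockout cultures and did not overlap with the wildtype (exact permutation p = 0.1, adjusted 0.48), and that of Tcirg1 was 21.1 ± 3.02% and did overlap (p = 0.3).

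The other V0 subunits differed by less than the spread between cultures. Atp6v0d1 (chr8:105524465-105566047, minus strand), the subunit that couples the rotor to the V1 sector, had the highest level per length of the sector, 102 ± 25.9 reads per kilobase of exon, scaled to the reads on genes of each library (RPKM) in wildtype and 93.5 ± 16.1 in knockout cultures. Its normalized reads were 5799, 5713 and 3545 in wildtype and 5153, 4990.5 and 3705 in knockout cultures, so culture 3 was the lowest of either genotype. Atp6v0b, a subunit of the rotor ring, had a log2 fold change of -0.32 ± 0.23 (adjusted p = 0.650), and Rnasek, a small V0-associated protein, had -0.24 ± 0.27 (adjusted p = 0.792). Of the exon length of Rnasek, 67.7% is shared with the read-through gene Gm21988 on the same strand, so its counts are uncertain.

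Atp6v0c (chr17:24163866-24169702, minus strand), which encodes the main proteolipid of the rotor ring and is needed for a working pump, was listed with 0 reads in all 6 libraries and could not be tested. A count of 0 allows up to 3 reads, or 0.103 to 0.117 CPM in a library. Of the 75-base windows of its transcripts, 9.24% also occur in its pseudogenes Atp6v0c-ps1 and Atp6v0c-ps2, and the other windows occur in no other annotated transcript. The cause of the 0 was not tested.

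The subunits of the V1 sector lay close to each other. All 9 were tested, all 9 had a log2 fold change below 0, from -0.30 (Atp6v1e1) to -0.09 (Atp6v1a), and the median was -0.19. None had an unadjusted p under 0.05. Atp6v1a (chr16:44085402-44139705, minus strand), the catalytic subunit A that binds ATP, had 12285, 12745 and 10065 normalized reads in wildtype and 12243, 12010 and 8765 in knockout cultures. The genotypes overlapped nearly fully, with culture 3 lowest in each, and the 95% confidence interval of the log2 fold change was -0.54 to 0.37. Atp6v1g1 (chr4:63544772-63550750, plus strand), a subunit of the peripheral stalk, stood per length at 74.8 ± 10.7 RPKM in wildtype and 61.7 ± 5.39 in knockout cultures, beside 70.3 ± 8.61 and 66.1 ± 11.7 for Atp6v1a. It had 2718, 2077.4 and 2224 normalized reads in wildtype and 1964, 2077.2 and 1746 in knockout cultures. The genotypes were separated by a fraction of a read, the log2 fold change was -0.28 ± 0.14 (adjusted p = 0.515), and 12.5% of its 75-base windows also occur in the pseudogenes Gm13453 and Gm12344. Atp6v1b2, the B subunit outside of specialized epithelia, made up 99.9 to 100% of the B subunit transcripts in each library, Atp6v1e1 100% of the E subunit and Atp6v1g1 97.0 to 98.4% of the G subunit. Subunit C was the exception, as Atp6v1c2 made up 22.7, 1.69 and 11.1% of its transcripts in wildtype and 14.2, 16.9 and 21.4% in knockout cultures, with overlap between the genotypes (exact permutation p = 0.5).

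**Figure D2:**
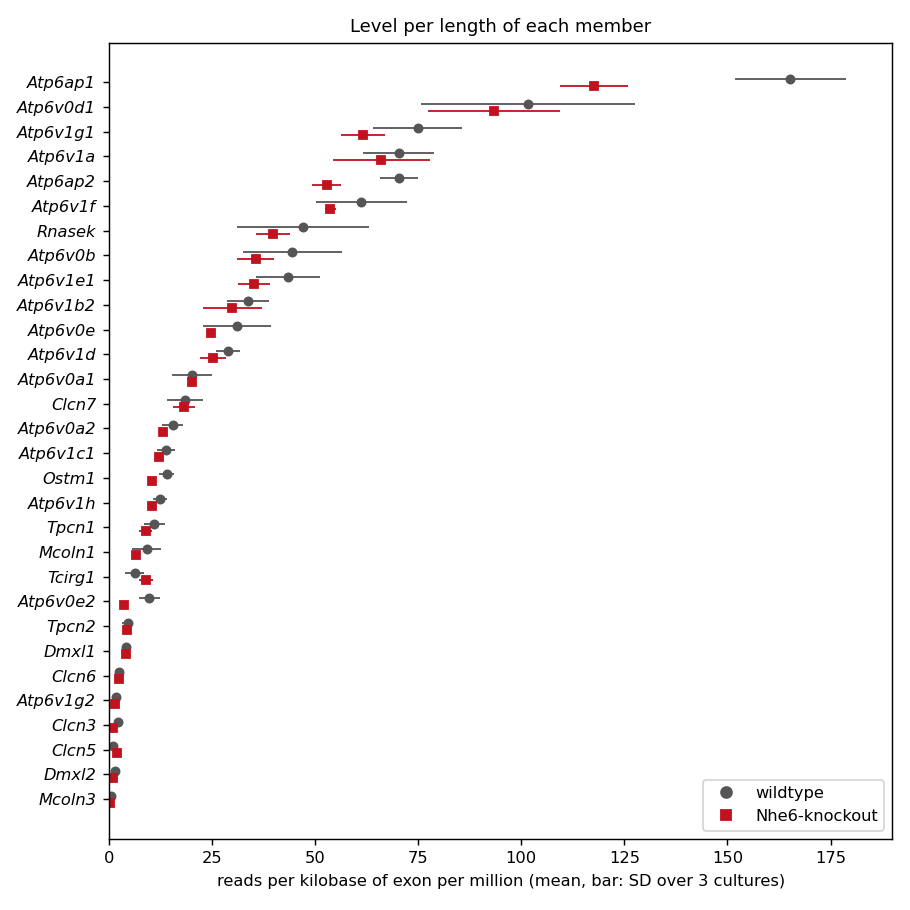
Level per length of each of the 30 tested genes in RPKM, mean and SD over 3 cultures of each genotype, ordered by the mean of all cultures. Atp6ap1 stands highest at 165 in wildtype and 118 in *Nhe6*-knockout cultures, and the genes below Tpcn2 lie under 5.

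Both accessory subunits had lower counts in every knockout culture than in every wildtype culture. Atp6ap1 (chrX:74297097-74304721, plus strand) encodes Ac45, which helps the V0 sector to assemble in the endoplasmic reticulum, and was the most abundant gene of the set per length. It had 14205, 14617 and 12499 normalized reads in wildtype and 10141, 10248 and 9015 in knockout cultures. The means were 13774 ± 1123 and 9801 ± 683, and the log2 fold change was -0.49 ± 0.14 with a 95% confidence interval of -0.83 to -0.15 and an adjusted p of 0.252 in edgeR. Atp6ap2 (chrX:12587801-12617049, plus strand) encodes the prorenin receptor, the other assembly partner of V0. It had 5239, 5297 and 4689 normalized reads in wildtype and 4059.6, 3812 and 3555 in knockout cultures. The log2 fold change was -0.41 ± 0.12 with a 95% confidence interval of -0.70 to -0.13 (adjusted p = 0.253). Both genes passed in DESeq2 and not in edgeR, and both kept a log2 fold change of at most -0.37 in all 15 alternatives. Summed per length, the accessory subunits stood at 215 to 249 RPKM in wildtype and 157 to 178 in knockout cultures, whereas the sums of V0 (197 to 325 against 213 to 258) and V1 (294 to 375 against 258 to 316) overlapped.

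**Figure D3:**
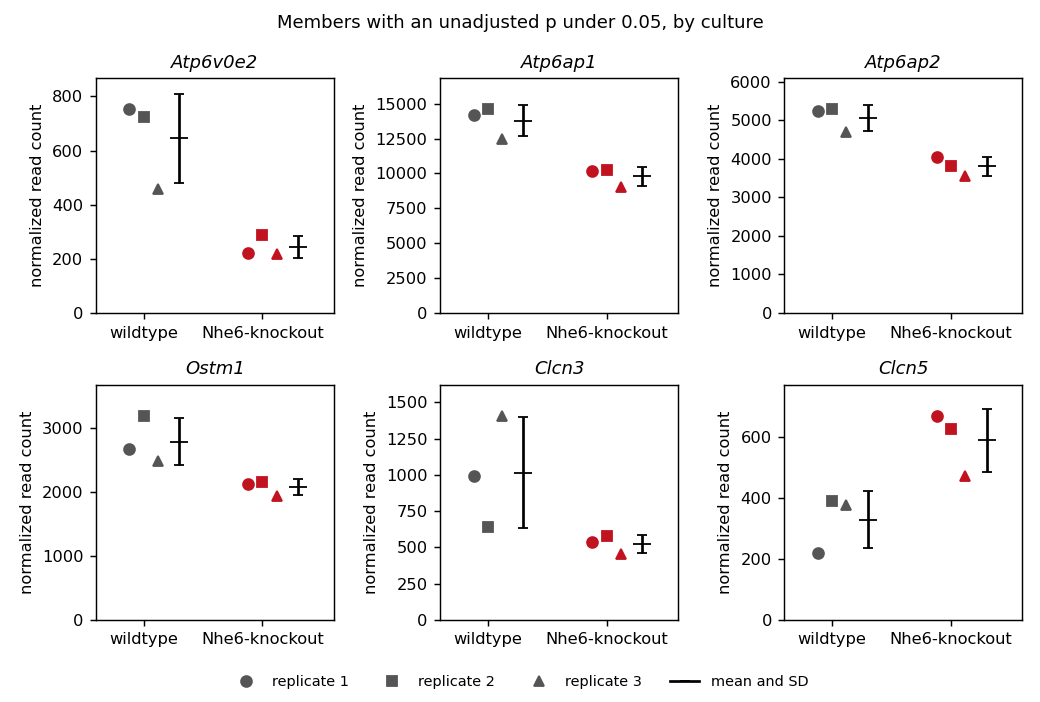
Normalized read counts of the 6 genes with an unadjusted p under 0.05, by culture, with mean and SD (n = 3 per genotype; each axis starts at 0). In Atp6v0e2, Atp6ap1, Atp6ap2, Ostm1 and Clcn3 every knockout culture lies below every wildtype culture, and in Clcn5 above.

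The rabconnectins, large proteins that bring V1 and V0 back together, differed from each other. Dmxl1, the more abundant of the pair, had 2015, 2226 and 3160 normalized reads in wildtype and 2649.8, 2509 and 2329.6 in knockout cultures, with full overlap and a log2 fold change of 0.02 ± 0.19. Dmxl2 (chr9:54365158-54501626, minus strand) had 430.1, 521 and 721 normalized reads in wildtype and 429.9, 360.4 and 354 in knockout cultures. Here wildtype culture 1 and knockout culture 1 nearly touched, and the log2 fold change was -0.55 ± 0.23 (adjusted p = 0.421). Dmxl2 made up 26.1, 27.9 and 27.3% of the pair per length in wildtype and 21.1, 19.2 and 20.04% in knockout cultures, an exact permutation p of 0.1, the smallest possible, and an adjusted value of 0.48.

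**Figure D4:**
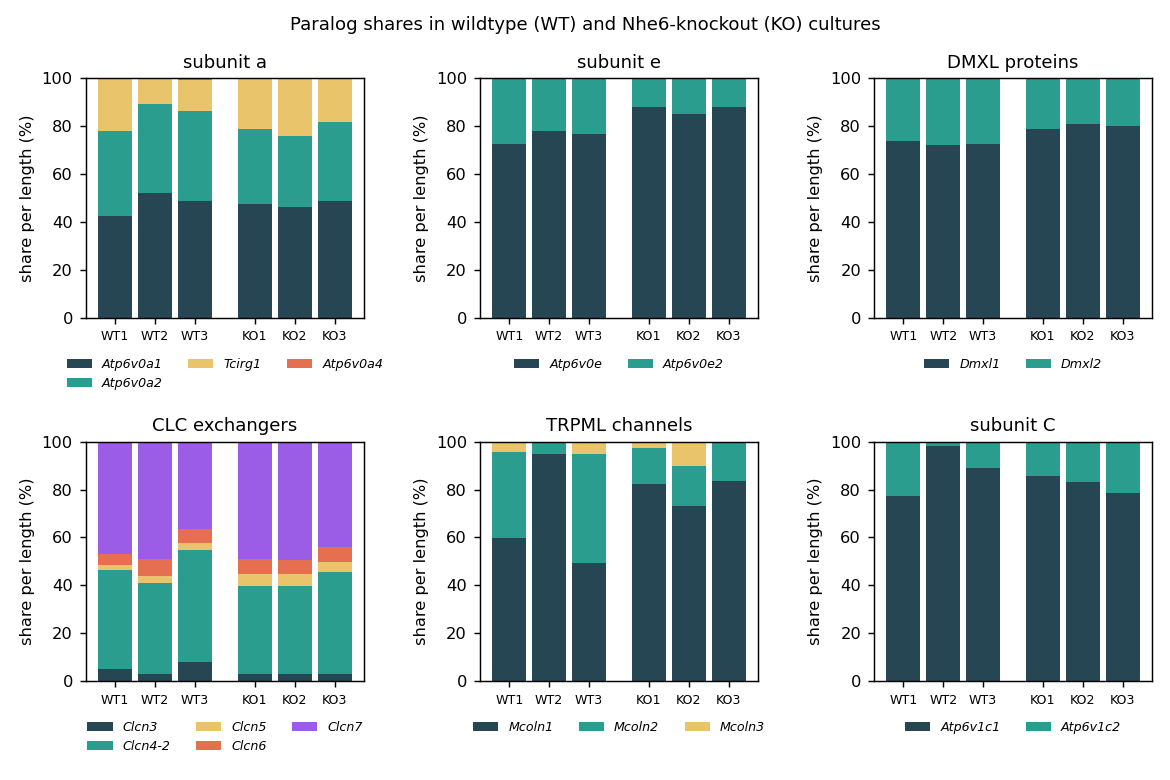
Share per length of each paralog within its family in each culture (WT, wildtype; KO, *Nhe6*-knockout; bars add up to 100%). Atp6v0e2 takes 21.8 to 27.3% of subunit e in wildtype and 12.0 to 14.9% in knockout cultures, and Mcoln1 takes 49.2 to 94.9% of the TRPML channels in wildtype and 73.3 to 83.7% in knockout cultures.

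Among the CLC exchangers, which trade chloride for protons, Clcn3 and Clcn5 lay on opposite sides of 0 and Clcn6 and Clcn7 lay near 0. Clcn3 (chr8:60910389-60983300, minus strand), the exchanger of endosomes and synaptic vesicles, had 994, 643 and 1406 normalized reads in wildtype and 539, 578 and 456 in knockout cultures. The wildtype cultures were spread more than 2-fold, and the lowest, culture 2, stood just above the highest knockout culture. The log2 fold change was -0.95 ± 0.29 with a 95% confidence interval of -1.65 to -0.25 (adjusted p = 0.278). Without wildtype culture 2, the culture that stood apart in macrophage, fibroblast, mural and endothelial markers, it was -1.20 and passed the threshold (adjusted p = 0.0392, edgeR's quasi-likelihood test), where 2.88% of all genes passed and 1.26% as lower. This was the only 1 of the 15 alternatives in which Clcn3 passed, and its log2 fold change ranged over them from -1.20 to -0.55.

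Clcn5 (chrX:7153810-7319358, minus strand), the exchanger of early endosomes known from proximal tubule cells and Dent disease, was the only gene of the set with higher counts in every knockout culture than in every wildtype culture. It had 219.9, 389.9 and 374 normalized reads in wildtype and 668, 624 and 469 in knockout cultures. The means were 328 ± 93.9 and 587 ± 104, and the log2 fold change was 0.84 ± 0.27 with a 95% confidence interval of 0.19 to 1.49 (adjusted p = 0.301). It stayed between 0.61 and 1.08 in the alternatives and passed in none. Clcn5 nevertheless made up only 2.52 ± 0.759% of the CLC exchanger transcripts per length in wildtype and 4.83 ± 0.481% in knockout cultures, shares that did not overlap (exact permutation p = 0.1, adjusted 0.48).

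Clcn7 (chr17:25133391-25162104, plus strand), the lysosomal exchanger, and Clcn4-2 outside the set were the main genes of the family, with 44.2 ± 6.84% and 42.1 ± 4.32% of its wildtype transcripts. Clcn7 had 2847, 3251 and 1990.3 normalized reads in wildtype and 2879, 2894 and 2205 in knockout cultures, and its 95% confidence interval was -0.54 to 0.50. Ostm1 (chr10:42583822-42702459, plus strand) encodes the beta subunit that ClC-7 needs in the lysosome, yet its counts were lower in the knockout. It had 2673, 3184 and 2480.1 normalized reads in wildtype and 2126, 2156 and 1931 in knockout cultures. All knockout cultures lay below all wildtype cultures, with a log2 fold change of -0.42 ± 0.13, a 95% confidence interval of -0.75 to -0.10 and an adjusted p of 0.288. The antisense gene Gm15200 overlaps 5.69% of the exon length of Ostm1.

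The 4 cation channel genes all stood below 0 (median log2 fold change -0.21), and in all 4 the genotypes overlapped. Tpcn1 (chr5:120534153-120588673, minus strand), a TPC channel of endosomes, had the highest level per length, with 3243, 2214 and 2281 normalized reads in wildtype and 2189, 2342 and 1688 in knockout cultures and a log2 fold change of -0.32 ± 0.20 (adjusted p = 0.617). Tpcn2, its lysosomal relative, stood at -0.10 ± 0.24. Mcoln1 (chr8:3500457-3515232, plus strand), the calcium-permeable lysosomal channel TRPML1, had 1721, 2712 and 1300.5 normalized reads in wildtype and 1359.9, 1389 and 1409 in knockout cultures. The knockout cultures had a coefficient of variation of 1.78% and lay above wildtype culture 3, and the log2 fold change was -0.46 ± 0.26 (adjusted p = 0.558).

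Mcoln3 (chr3:146117450-146141806, plus strand), the TRPML3 channel known from the hair cells of the varitint-waddler mouse, was the least abundant of the tested genes and the most variable. It had 57.7, 0 and 59.9 normalized reads in wildtype and 19.1, 88.3 and 1.89 in knockout cultures, and its 95% confidence interval of -3.81 to 3.6 covers both directions widely. The summed markers of strial and other epithelial cells were 1256, 27.8 and 614 in wildtype and 234, 808 and 80.4 in knockout cultures. The 3 cultures lowest in these markers were the 3 lowest in Mcoln3, and the part of such cells in its values was not tested.

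**Figure D5:**
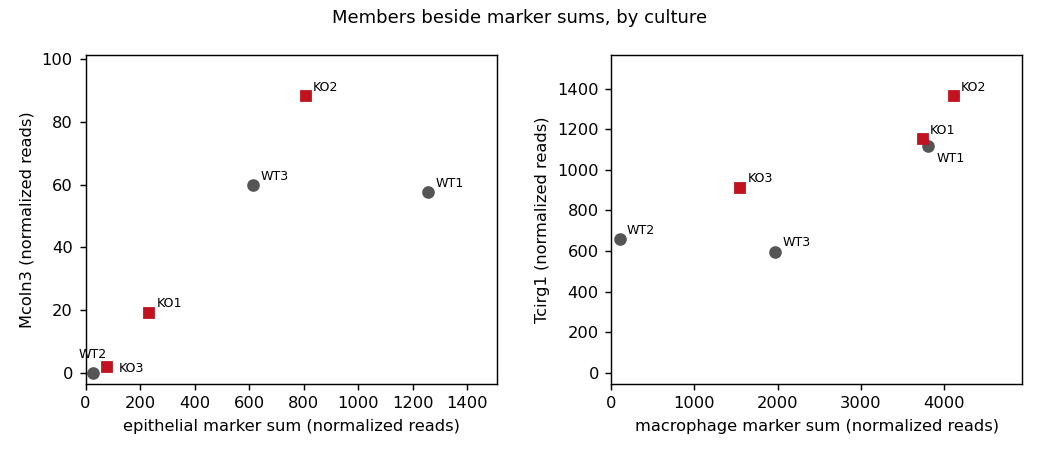
Left, normalized reads of Mcoln3 against summed epithelial markers, and right, of Tcirg1 against summed macrophage markers, 1 point per culture (circles, wildtype; squares, *Nhe6*-knockout). Wildtype culture 2 has the lowest marker sum in both panels (27.8 and 99.0), with 0 normalized reads of Mcoln3 and 658 of Tcirg1.

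The cultures also differed in ways that cut across the roles. *Nhe6*-knockout culture 3 had the lowest normalized count of its genotype for 27 of the 30 genes (90%), beside 43.1% of all genes tested, and wildtype culture 3 for 19 of 30 (63.3%), beside 32.8%. Without knockout culture 3, 20 of the 30 genes were below 0, and Atp6v0d1, Atp6v1a and Atp6v1b2 were then at 0.01, 0.04 and 0.01 on the log2 scale. The coefficient of variation was lower in the knockout than in the wildtype cultures for 25 of the 30 genes, with a median of 9.50% against 24.4%. The same count over all genes was not made, but the wildtype cultures differed more from each other there too. Over all genes with enough reads, the SD of the log2 ratio within pairs was 0.34 to 0.66 in knockout and 0.65 to 1.39 in wildtype. The pairs with wildtype culture 2 had the largest values, 1.39 and 1.35. The part of that culture, and of the close pair of knockout cultures 1 and 2, in the difference was not tested.

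Other genes of endosomal and lysosomal ion handling gave the setting. Of 50 such genes tested, 0 passed the threshold in edgeR's quasi-likelihood test and 0 in DESeq2, and 5 (10%) had an unadjusted p under 0.05 in edgeR, beside 11.8% of all genes. DESeq2 passed 4.65% of all genes. The paralogs outside the set had 2 of 4 tested genes below 0, the assembly and regulation factors of the V-ATPase 9 of 12 (median log2 fold change -0.22), other endosomal and lysosomal ion transporters 6 of 12 (median 0.0067), lysosomal transcription factors and their regulators 5 of 8 (median -0.07), and the Ragulator, Rag and amino acid sensing genes 7 of 14 (median -0.0032). Slc9a9, which encodes NHE9, a sodium/proton exchanger of endosomes, had 2275, 1197 and 2125 normalized reads in wildtype and 1177, 1158 and 779 in knockout cultures, without overlap (log2 fold change -0.85 ± 0.29, adjusted p = 0.327). Clcn4-2, the partner of Clcn3, had 4062, 4089 and 4138 in wildtype and 3488, 3477.2 and 3477.4 in knockout cultures, a small difference with little spread (-0.23 ± 0.10, adjusted p = 0.428). Ncoa7, a regulator that binds the V-ATPase, stood at 0.77 ± 0.30 (adjusted p = 0.399), Hn1l, which encodes a binding protein for the NAADP signal at TPC channels, at 0.58 ± 0.21 (0.351), and Tfe3, a relative of TFEB, at 0.16 ± 0.11 (0.630). Rheb, the GTPase that switches on mTORC1 at the lysosome, stood at -0.45 ± 0.16 (0.343), and Slc38a9, the lysosomal arginine sensor, at -0.89 ± 0.33 (0.367).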

How the data were processed

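Poly(A) RNA of the 6 cultures was converted into libraries with a stranded kit and sequenced for 75 cycles. The deposited values are raw read counts per gene made by the authors from reads aligned to mm10, and the submitters' processing notes name bcl2fastq 2.20.0.422, STAR 2.7.7a, HTSeq 0.13.5 and DESeq2 1.26.0. The strand setting and the annotation of the counting are not given in the sources used here. Summary lines that name no gene held 21.5 to 23.6% of the reads of a library and were left out.

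Genes with enough reads (filterByExpr, minimum count 10) were normalized by TMM and tested with edgeR 4.0.16 (quasi-likelihood, R 4.3.3), Nhe6-knockout against wildtype with no covariate, and p-values were adjusted by Benjamini-Hochberg over all genes tested. Normalized reads are counts scaled to a common library size. Levels per length use the exon length of each gene in GENCODE M21 (GRCm38), which also gives the positions. Alternatives were DESeq2 1.42.0, limma-voom (limma 3.58.1), other scalings and filters, a replicate block, and leaving out cultures. The fits were tested on simulated data. The values of the targeted gene are not reported here. The genes, lists and rules for naming them were chosen with earlier results of these data known. Named were genes with an unadjusted p under 0.05, without overlap between genotypes, highest per length in their role, in a paralog family or not testable. Of the set, Atp6v0b, Rnasek and Atp6v1a were named outside this rule. Where a culture is 1 pool of mice, p-values measure the spread between pools.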

Additional observations from a re-analysis of the deposited data

How the results depend on the processing

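Of the 449 log2 fold changes of single genes recomputed under alternatives, 418 kept their direction and their side of the threshold, 27 turned sign and 4 came to pass it (3 in DESeq2 and Clcn3 without wildtype culture 2). For 20 of the 30 genes no alternative turned the sign. The count of all genes past the threshold, 9, was 21 with no filter beyond 1 count, 21 with at least 10 counts in every library, 627 in DESeq2, 2 with the replicate block, 0 to 395 with 1 culture left out (395 without wildtype culture 2), 0 without both cultures numbered 3 and 1 with knockout cultures 1 and 2 summed, the last pair of settings being chosen after seeing the data. The 0 genes of the set that passed as lower became 3 in DESeq2 and 0 to 1 with 1 culture left out, and the 0 genes of the other lists 0 to 2, Mcoln2 and Slc38a9, without wildtype culture 2. The median of the set ranged from -0.32 (without wildtype culture 3) to -0.16 with 1 culture left out, and 20 to 27 of the genes were below 0. Paralog share differences were recomputed with another length, with no length and with 1 culture left out. Of these, 8 moved by at least the larger genotype SD, and 208 by less or by a negligible amount. With 1 culture left out, the difference ranged from -12.3 to -9.55 percentage points for Atp6v0e2 and from 2.53 to 25.4 for Mcoln1.

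Same-numbered cultures deviated with correlations of 0.198, -0.204 and 0.0937, and 1 of 3 knockout cultures correlated best with the wildtype culture of its number, so the numbers were not taken to pair the cultures. Both cultures numbered 3 were nevertheless the lowest of their genotype for 16 of 30 genes (53.3%), beside 18.2% of all genes, and the block gave a smaller standard error for 20 of the 30 (median 0.161 against 0.209). The replicate block turned Atp6v0a1 to 0.017 and the median of all genes to 0.016, and passed no gene of the set. Signs also turned for Atp6v0a1 (0.028 by upper quartile, 0.017 in limma-voom), Clcn7 (0.014 by upper quartile), Mcoln3 (0.39 in limma-voom, 0.89 without both cultures numbered 3), Atp6v1g2 (0.093 without both cultures numbered 3), Dmxl1 (-0.0096 with knockout cultures 1 and 2 summed) and the median of all genes (0.014 by upper quartile, 0.019 in limma-voom). With 1 culture left out, signs turned for Atp6v0a1 (-0.12 to 0.20), Atp6v0d1 (-0.33 to 0.0067), Atp6v1a (-0.19 to 0.044), Atp6v1b2 (-0.30 to 0.0091), Atp6v1g2 (-0.39 to 0.049), Clcn6 (-0.20 to 0.20), Clcn7 (-0.20 to 0.13), Dmxl1 (-0.12 to 0.23), Mcoln3 (-1.90 to 0.45), Tpcn2 (-0.31 to 0.12) and the median of all genes (-0.031 to 0.00029). The causes were not tested. Mcoln3 had 0 to 95 reads per library at similar depth.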
